A study of Saccharomyces cerevisiae with 10 samples.

Results

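The genes for small nucleolar RNAs (snoRNAs) and small nuclear RNAs (snRNAs) of budding yeast were followed in ChIP-seq peak lists of Swc4. The group was chosen by the biotype of the gene in the R64 annotation of RefSeq, and held 82 of the 6431 nuclear genes, 76 of biotype snoRNA and 6 of biotype snRNA. They lie on 15 of the 16 nuclear chromosomes. SNR7-L and SNR7-S, the long and short forms of U5 RNA, are entries of the same locus, so the 82 entries stand for 81 loci.

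Swc4 is a subunit of the chromatin remodeller SWR1, which exchanges histone H2A for its variant H2A.Z, and also of the acetyltransferase complex NuA4. It carried a 13-copy Myc tag (SWC4-13MYC) in wild type, yaf9d, eaf1d and swr1d, and chromatin was recovered with an antibody to c-Myc from cells grown at 30 °C to an OD600 of about 0.6. The 3 mutants lack Yaf9, another subunit of both complexes, Eaf1, the scaffold of NuA4, or Swr1, the ATPase of SWR1. A wild-type strain with no tag was the fifth group, and it is not analysed here. Each group had 2 repeats, but each of the 4 peak lists pools both repeats of a tagged group. No repeat spread exists for any value below, no genotype was tested against another, and "with a peak" means that the authors' peak caller made a call within 100 bp of the gene.

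snoRNAs guide the chemical modification of ribosomal RNA in the nucleolus, and a few of them are needed for its cleavage. Box C/D snoRNAs guide methylation of the ribose and box H/ACA snoRNAs guide the change of uridine to pseudouridine. The snRNAs U1, U2, U4, U5 and U6 form the core of the spliceosome. In budding yeast most of these genes are transcribed from promoters of their own by RNA polymerase II, some are transcribed together as 1 precursor, some are cut out of introns, and SNR6 (U6) and SNR52 are transcribed by RNA polymerase III. Of the 82 genes, 47 were box C/D, 29 box H/ACA and 6 snRNA entries. Independent genes were 56 single ones and 17 in 5 clusters, and 9 lay inside a protein-coding gene.

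A minority of the genes had a peak in each list, and most of those were single independent genes. There were 11 with a peak in wild type (13.4%, interval 6.89–22.7), 26 in yaf9d (31.7%, 21.9–42.9), 11 in eaf1d (13.4%, 6.89–22.7) and 7 in swr1d (8.54%, 3.50–16.8). The intervals are exact Clopper-Pearson 95% intervals and cover counting error only. Over all 6431 nuclear genes the same rule found a peak at 11.9% in wild type, 55% in yaf9d, 41.4% in eaf1d and 18.5% in swr1d. Most of those genes are protein-coding genes and longer than snoRNA genes, whose median length was 148 bp, so a longer stretch of each can meet a peak. Of 275 tRNA genes it was 22.5%, 54.9%, 40.7% and 50.9% in the same order, and of 42 noncoding genes of other kinds 19%, 35.7%, 38.1% and 23.8%. The counts depend on the window: within 500 bp of the gene they were 22, 49, 23 and 17, where 19.3%, 69.9%, 56.0% and 30.9% of all nuclear genes had a peak. At the start alone, from 250 bp before to 50 bp after it, a peak was called at 11 of the snoRNA and snRNA genes in wild type (13.4%), 18 in yaf9d (22%), 6 in eaf1d (7.32%) and 6 in swr1d (7.32%). The same stretch of all nuclear genes held one at 10%, 31.3%, 27.7% and 12.5%.

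Stretches of the same length gave a closer background. Of all 348 bp windows laid end to end along the genome, which is the median length of the 82 genes with 100 bp on each side, 5.16% held a peak in wild type, 31% in yaf9d, 22.2% in eaf1d and 8.72% in swr1d. Of those centred outside protein-coding genes it was 9.12% in wild type, 29.4% in yaf9d, 24.5% in eaf1d and 14.9% in swr1d. The shares of the snoRNA and snRNA genes in wild type, yaf9d and swr1d had intervals that held the share outside protein-coding genes, so at this number of genes no difference from other places between genes was detectable. In eaf1d the interval ended at 22.7, below 24.5%. The share of whole-genome windows lay within the interval in yaf9d, eaf1d and swr1d, and in wild type it lay below it (5.16% against a lower bound of 6.89).

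**Figure D1:**
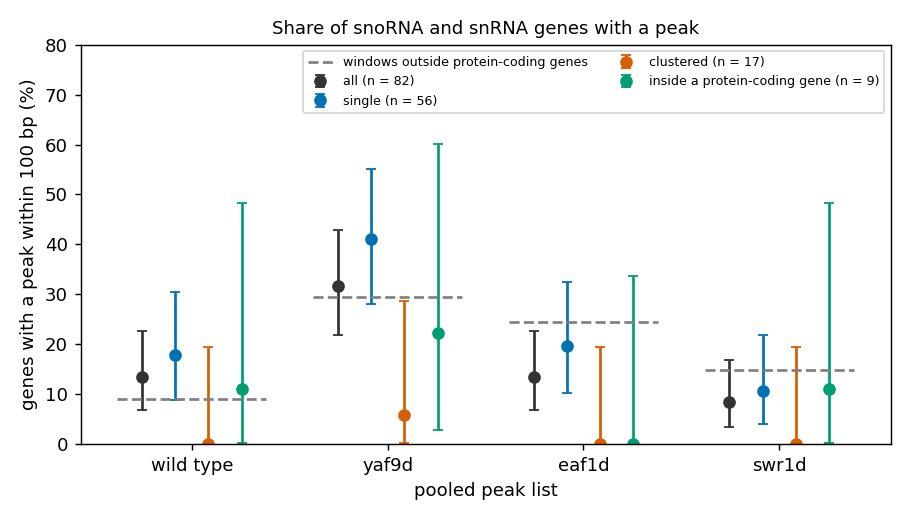
Share of genes with a peak within 100 bp (y axis, %) in each pooled list (x axis), with exact 95% intervals, for all 82 genes and for 56 single, 17 clustered and 9 genes inside a protein-coding gene; dashed lines give the share of 348 bp windows centred outside protein-coding genes. Single genes stood at 17.9% in wild type and 41.1% in yaf9d, and clustered genes at 0% in wild type.

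The single genes carried nearly all of the peaks. Of 56 single genes 10 had a peak in wild type (17.9%, 8.91–30.4), 23 in yaf9d (41.1%, 28.1–55.02), 11 in eaf1d (19.6%, 10.2–32.4) and 6 in swr1d (10.7%, 4.03–21.9). Each of these intervals held the share of windows outside protein-coding genes in its list.

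The 17 clustered genes had 1 peak over the 4 lists. The 5 clusters were SNR78 to SNR72 with 7 genes, SNR51, SNR70 and SNR41, SNR61, SNR55 and SNR57, SNR67 and SNR53, and SNR128 and SNR190, all of them box C/D genes. SNR128 encodes U14, which is needed for the cleavage that releases 18S ribosomal RNA. None of the 17 genes had a peak in wild type, eaf1d or swr1d (0%, upper bound 19.5), and 1 had one in yaf9d (5.88%, 0.149–28.7). The share of windows outside protein-coding genes, 9.12% in wild type and 14.9% in swr1d, lay within the interval of 0 to 19.5, and that in eaf1d (24.5%) and yaf9d (29.4%) lay above the interval of its list. That gene was SNR53, where the summit lay 102 bp past its end and the peak (chromosome V, 61755–62044, fold 2.73) also covered the tRNA gene YNCE0004C. Genes of a cluster share a promoter region and lie side by side, so the 17 are not independent, and 1 of 5 clusters had a peak in yaf9d (20%, 0.505–71.6).

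Genes inside a protein-coding gene had 1 peak in wild type, 2 in yaf9d, 0 in eaf1d (upper bound 33.6) and 1 in swr1d, of 9. Of these 9, 8 are known to be cut out of introns, of the ribosomal protein genes RPL7A (SNR39), RPL7B (SNR59) and RPS22B (SNR44), the translation factor genes EFB1 (SNR18) and TEF4 (SNR38), ASC1 (SNR24), IMD4 (SNR54) and NOG2 (SNR191). None of the 8 had a peak in wild type (upper bound 36.9) or eaf1d. SNR24 had one in yaf9d (fold 1.60), whose summit lay 281 bp before the snoRNA and within ASC1, and SNR18 had one in swr1d (fold 1.19), whose summit lay 304 bp past the snoRNA and within EFB1. The fold of the latter was among the lowest of its list (rank 1243 of 1262). The ninth, SNR10, overlaps the reading frame YGL088W on the same strand and is described with the wild-type genes below.

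By kind of RNA, box C/D genes had a peak at 5 of 47 in wild type (10.6%, 3.55–23.1), 10 in yaf9d, 4 in eaf1d and 5 in swr1d. Box H/ACA genes had one at 5 of 29 in wild type (17.2%, 5.85–35.8), 12 in yaf9d (41.4%, 23.5–61.1), 6 in eaf1d and 2 in swr1d. All clustered genes are box C/D genes. Among single genes, box C/D genes had a peak at 5 of 24 in wild type (20.8%), 8 in yaf9d (33.3%), 4 in eaf1d (16.7%) and 4 in swr1d (16.7%). Single box H/ACA genes had one at 4 of 26 in wild type (15.4%), 11 in yaf9d (42.3%), 6 in eaf1d (23.1%) and 2 in swr1d (7.69%). Box H/ACA genes had the higher share in yaf9d and eaf1d and box C/D genes in wild type and swr1d, and the difference between the kinds was not tested.

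The 4 genes with a peak in all lists, of 82, were SNR48, SNR60, SNR189 and SNR43. Over all nuclear genes it was 325 of 6431, and over tRNA genes 54 of 275. Of the genes with a wild-type peak, that was 36.4% here, 42.5% over all nuclear genes and 87.1% over tRNA genes. SNR48 is a box C/D guide for 25S ribosomal RNA. Its peak had a fold of 2.23 in wild type, 3.47 in yaf9d, 3.11 in eaf1d and 3.07 in swr1d, and lay at 609739–610154 of chromosome VII in wild type. By −log10 q, the authors' significance, it was the peak of rank 74 of 625 in wild type, 102 of 4590 in yaf9d, 20 of 2937 in eaf1d and 103 of 1262 in swr1d. It was thus the most significant of the snoRNA and snRNA gene peaks in the yaf9d, eaf1d and swr1d lists. Folds are over the background of each list and order peaks within a list; they do not compare genotypes. The peak did not overlap the RNA itself in any list. It began 42 to 89 bp beyond it, and its summit lay 248 to 260 bp past the end of the gene.

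SNR60, a box C/D guide for 25S ribosomal RNA, had a fold of 2.24 in wild type (chromosome X, 348881–349252), 3.08 in yaf9d, 2.05 in eaf1d and 2.26 in swr1d. Its rank by significance was 53 in wild type, 114 in yaf9d, 132 in eaf1d and 194 in swr1d. The summit lay 106 to 117 bp past its end, in the promoter of UBX6. The small reading frame YJL047C-A overlaps less than 50% of SNR60, which therefore counted as single.

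SNR189, a box H/ACA guide, had the highest wild-type fold of the group, 3.36 (chromosome III, 178218–178679), with 4.80 in yaf9d, 2.01 in eaf1d and 3.63 in swr1d. Its rank by significance was 43 in wild type, 103 in yaf9d, 650 in eaf1d and 141 in swr1d. The summit lay 220 to 235 bp past its end and 155 to 170 bp before the start of RPS14A, a gene for a protein of the small ribosomal subunit, so this peak also counts as one at a ribosomal protein promoter. In eaf1d and swr1d it did not reach the snoRNA and lay 57 and 32 bp from it.

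SNR43, a box H/ACA guide for 25S ribosomal RNA, had folds of 1.87 in wild type (chromosome III, 107234–107878), 1.90 in yaf9d, 1.58 in eaf1d and 1.34 in swr1d, where it ranked 616 of 1262. Its summits fell on both sides of the gene. They lay 23 and 17 bp before the start in wild type and eaf1d, and 121 and 135 bp past the end, within VMA9, in yaf9d and swr1d.

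A further 4 genes had a peak in wild type, yaf9d and eaf1d and none in swr1d. SNR45, which guides acetylation of cytosine in 18S ribosomal RNA, had folds of 2.08, 2.27 and 1.80, and its summit lay 256 to 267 bp past its end in the promoter of the asparagine synthetase gene ASN1. In swr1d the nearest peak began 114 bp from SNR45, just outside the limit of 100 bp, with a fold of 1.85. SNR81, which guides pseudouridylation of 25S ribosomal RNA and of U2, had folds of 1.87, 2.14 and 1.80, and its summit lay 20 to 42 bp inside the gene. LSR1, which encodes U2, had folds of 1.31, 1.76 and 2.09. Its summit lay 208 to 210 bp past its end, within COQ21 and in the promoter of OM14, and in eaf1d it was the peak of rank 23 of 2937. In swr1d the nearest peak to LSR1 was 147 bp away.

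SNR30, a box H/ACA snoRNA needed for 18S ribosomal RNA processing, was the other of these 4. Its folds were 1.35 in wild type (chromosome XII, 198790–199705), 1.68 in yaf9d and 1.18 in eaf1d, where it was close to the bottom of the list by fold (2926 of 2937). The summit lay 234 to 248 bp from the start, within the gene, in all 3 lists. The wild-type peak was 916 bp wide and covered 600 bp of the gene.

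The remaining wild-type genes were SNR58, SNR10 and SNR64. SNR58, a box C/D guide, had folds of 1.66 in wild type, 2.14 in yaf9d and 1.73 in swr1d and no peak in eaf1d. Its summit lay 93 to 109 bp before its start, in YOL097W-A and in the promoter of SDD3. SNR10, a box H/ACA snoRNA that also takes part in early cleavage of pre-ribosomal RNA, had folds of 1.70 in wild type and 2.83 in yaf9d, with the summit 124 and 150 bp inside the gene. SNR64, a box C/D guide, had folds of 1.94 in wild type and 2.51 in yaf9d, with the summit 73 and 80 bp before its start. Neither SNR10 nor SNR64 had a peak in eaf1d or swr1d.

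Genes without a wild-type peak that had one in more than 1 mutant list were SNR8, SNR85 and SNR52. SNR8, a box H/ACA guide, had folds of 2.53 in yaf9d and 2.06 in eaf1d (chromosome XV, 832323–832597), where it ranked 49 of 2937 by significance. The summit lay 116 and 108 bp inside the gene. SNR85, also H/ACA, had folds of 1.80 in yaf9d and 1.59 in eaf1d, with summits 128 and 131 bp inside the gene. SNR52, the box C/D gene of RNA polymerase III, had a fold of 3.04 in yaf9d (chromosome V, 431166–431454) and 3.63 in swr1d (431158–431456), and its summits lay 57 and 112 bp before the start. SNR6 (U6), also of RNA polymerase III, had no peak in any list.

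In yaf9d alone a peak was called at 12 entries. They were the spliceosomal entries SNR19 (U1, fold 2.09, summit 211 bp inside the gene) and SNR7-L and SNR7-S (U5, the same peak of fold 2.30), the box H/ACA genes SNR3, SNR9, SNR11, SNR33 and SNR35, and the box C/D genes SNR24, SNR53, SNR68 and SNR69. Folds of these 12 ran from 1.60 at SNR24 to 2.73 at SNR53. The peak at SNR33 (fold 2.02) also lay over the tRNA gene SUF16. The yaf9d list held 4522 nuclear peaks against 625 in wild type. The share of all nuclear genes with a peak in yaf9d alone was not counted. Of the 3537 nuclear genes with a yaf9d peak, 20.6% also had one in wild type. It was 41.1% of the 151 tRNA genes with a yaf9d peak and 42.3% of the 26 here. When each list was held to its 625 most significant nuclear peaks, 21 of the 82 genes had a peak in yaf9d, 11 in wild type, 7 in eaf1d and 6 in swr1d, where all nuclear genes had one at 10.5%, 11.9%, 10.5% and 9.38%. That ranking is by −log10 q, which at a given fold rises with the solved local background, as given below. The part of that background in the 21 was not tested. SNR17A was the gene with a peak in eaf1d alone (fold 1.42), 88 bp from the gene and in the promoter of DFR1. In the other lists the nearest peak lay past the limit, at 129 bp in wild type (fold 4.07), 126 bp in yaf9d (fold 1.51) and 162 bp in swr1d (fold 5.75). The wild-type and swr1d ones lay before the start of SNR17A. SNR17A and SNR17B encode U3, which is needed for the first cleavages of pre-ribosomal RNA, and SNR17B had no peak within the limit in any list. Its nearest peaks lay before its start, at 133 bp in wild type (fold 4.35), 146 bp in yaf9d (fold 7.51) and 168 bp in swr1d (fold 6.36). In eaf1d the nearest one was 2666 bp away.

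No peak was called in any list at 54 of the 82 genes (65.9%), among them SNR14 (U4), SNR6 (U6), SNR17B (U3) and SNR128 (U14). Over all nuclear genes, most of them longer, that share was 40.5%, and over tRNA genes 42.2%. A gap of slightly over 100 bp kept some of the 54 out. In wild type the nearest peaks outside the limit lay 107 bp from SNR56 (fold 1.74), 118 bp from SNR32 (fold 5.89) and 121 bp from SNR83 (fold 1.63). Inside the limit the widest gaps in wild type were 42 bp at SNR48 and 28 bp at SNR45. The other single genes with no peak were, among box C/D genes, SNR4, SNR13, SNR39B, SNR40, SNR47, SNR50, SNR62, SNR63, SNR65, SNR66, SNR71, SNR79 and SNR87. Among box H/ACA genes they were SNR5, SNR31, SNR34, SNR36, SNR37, SNR42, SNR46, SNR49, SNR80, SNR82, SNR84, SNR86 and SNR161.

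Wild-type peaks at these genes were found again in yaf9d at 11 of 11 genes, in eaf1d at 8 (72.7%) and in swr1d at 5 (45.5%). Over all nuclear genes with a wild-type peak it was 95.03% in yaf9d, 69.5% in eaf1d and 56.5% in swr1d, and for the 62 tRNA genes with one 100%, 87.1% and 96.8%. In the other direction, the 11 wild-type genes made up 42.3% of the 26 in yaf9d, 8 of the 11 in eaf1d (72.7%) and 5 of the 7 in swr1d (71.4%). Over all nuclear genes those shares were 20.6%, 19.99% and 36.3%, and over tRNA genes 41.1%, 48.2% and 42.9%. The summits were placed alike: of the 14 genes with a peak in more than 1 list, 11 had all summits within 25 bp of each other, and the median span was 13.0 bp. The 3 others were SNR10 (26 bp), SNR52 (55 bp) and SNR43 (366 bp). The span was not computed for other genes, so it has no background here.

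Among the peaks called within 100 bp of a gene, many summits lay past its end and fewer before its start. Of the 50 peaks at independent genes, counted over the 4 lists, 28 had the summit past the end. By list it was 5 of 10 in wild type, 13 of 23 in yaf9d, 6 of 11 in eaf1d and 4 of 6 in swr1d. Summits before the start numbered 3 in wild type, 4 in yaf9d, 1 in eaf1d and 2 in swr1d. The rule takes 100 bp on either side of a gene and leaves out peaks farther away. In wild type such peaks lay before the start at SNR17A (129 bp, fold 4.07), SNR17B (133 bp, fold 4.35) and SNR83 (121 bp, fold 1.63). Past the end they lay at SNR32 (118 bp, fold 5.89) and SNR56 (107 bp, fold 1.74). Whether the limit favours a side was not tested. The side of the summit was not counted for other genes. Of 24 independent genes with a peak, with SNR7-L and SNR7-S as 1, 14 had a summit past the end in at least 1 list, and 13 of them in every list in which they had a peak. SNR43 was the exception. These summits lay 98 to 272 bp from the end.

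**Figure D2:**
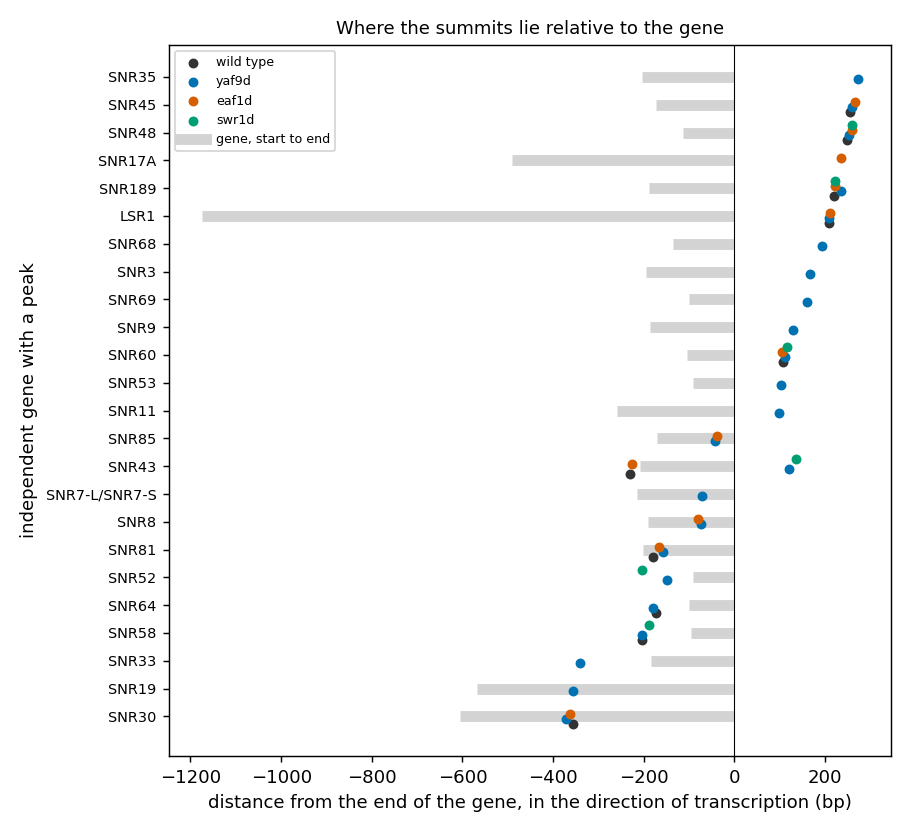
Distance of each peak summit from the end of the gene in the direction of transcription (x axis, bp), for the independent genes with a peak (y axis); grey bars are the genes and points the summits in each list. At 13 genes the summits in all lists with a peak lay to the right of the line that marks the end, at most 272 bp from it.

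Windows of equal length on both sides gave the same order in wild type, yaf9d and eaf1d. They meet many of the same peaks as the summits above and are no separate evidence. Among the 73 independent genes, the 200 bp past the end held a peak at 11 in wild type (15.1%), 25 in yaf9d (34.2%), 10 in eaf1d (13.7%) and 5 in swr1d (6.85%). The 200 bp before the start held one at 8 (11%), 14 (19.2%), 4 (5.48%) and 6 (8.22%). In the same order, 7, 16, 8 and 4 of the 73 had a peak only past the end. Only before the start it was 4, 5, 2 and 5, and on both sides 4, 9, 2 and 1. Of the 56 single genes, the window past the end held a peak at 19.6%, 42.9%, 17.9% and 8.93% in the 4 lists, and the window before the start at 14.3%, 25%, 7.14% and 10.7%. In swr1d the order of the sides was the other way round. Over all nuclear genes with a strand, the window past the end held a peak at 5.13%, 20.6%, 15.8% and 7.74%, and the window before the start at 8.62%, 22.6%, 21.5% and 9.63%, in the same order of lists. Protein-coding genes thus had the peak more often before the start (7.95% against 4.13% in wild type), also in yaf9d (21.3% against 18.8%), eaf1d (21.1% against 14.6%) and swr1d (7.81% against 5.73%). For tRNA genes the sides were near each other, with 21.5% before and 21.5% after in wild type, 53.5% and 56.7% in yaf9d, 37.8% and 41.5% in eaf1d, and 49.8% and 50.5% in swr1d. The difference between the sides was not tested.

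The next protein-coding gene past the end was on the same strand at 40 of the 73 independent genes and on the opposite strand at 33. The 200 bp past the end held a peak at 6, 13, 7 and 4 of the 40 in wild type, yaf9d, eaf1d and swr1d. Of the 33 it was 5, 12, 3 and 1. Other genes were not split by the strand of the next gene, so these counts have no background here. Of the 5 wild-type summits past the end, 4 lay in the 500 bp promoter of a protein-coding gene, namely OM14 (LSR1), RPS14A (SNR189), UBX6 (SNR60) and ASN1 (SNR45). The fifth, at SNR48, lay in no promoter or gene body and was 620 bp before the start of ERG25. In yaf9d 4 of the 13 lay in a promoter, 7 in the body of a protein-coding gene and 3 in neither, LSR1 counting under both of the former. Whether a peak belongs to the snoRNA gene or to its neighbour cannot be told apart where both lie under it. Of the wild-type peaks at the group, 9 of 11 overlapped a promoter of a protein-coding gene, 1 a ribosomal protein promoter and 0 a tRNA gene. Over all 625 wild-type peaks, 81 were at a ribosomal protein promoter and 56 at a tRNA gene. Peaks and summits in any promoter were not counted over all peaks, so those shares have no background here. Among the other lists, tRNA genes lay under 2 of 25 peaks in yaf9d, 0 of 11 in eaf1d and 0 of 7 in swr1d. Over all nuclear peaks of these lists it was 145 of 4522, 106 of 2900 and 134 of 1258.

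The peaks stood apart from their lists by significance more than by fold. Their median −log10 q was 54.5 in wild type against 13.5 over all peaks of the list, 55.8 against 11.99 in yaf9d, 34.4 against 13.5 in eaf1d and 49.6 against 10.01 in swr1d. The median fold was 1.87 against 1.67 in wild type, 2.09 against 1.88 in yaf9d, 1.80 against 1.85 in eaf1d and 2.26 against 1.69 in swr1d. A fold of at least 2 was reached by 4 of 11 peaks in wild type, 17 of 25 in yaf9d, 5 of 11 in eaf1d and 4 of 7 in swr1d, where all nuclear peaks reached it in 30.4%, 36.2%, 37% and 39% of cases.

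The pileup and local background at each summit, both in fragments per position, were solved from the authors' fold and −log10 p. At the snoRNA and snRNA gene peaks the median local background was 400 in wild type against 133 over all solved peaks, 244 against 84.1 in yaf9d, 398 against 107 in eaf1d and 278 against 109 in swr1d. It was above the median of the list at 11 of 11 peaks in wild type, 23 of 25 in yaf9d, 11 of 11 in eaf1d and 6 of 7 in swr1d. At tRNA gene peaks the median was 110, 67.9, 91.7 and 86.2 in the same order, and at ribosomal protein promoter peaks, of which 46 of 98 could be solved in yaf9d and 53 of 83 in swr1d, it was 99.3, 94.7, 83.9 and 82.0. Both values follow from the fold and −log10 p alone, so at a given fold a higher significance returns a higher background. The solved background thus restates the significance and fold above as fragments and is no separate evidence. The sources used here do not say whether that background came from an input, the untagged strain or the tagged samples. Its part in the calls was not tested.

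**Figure D3:**
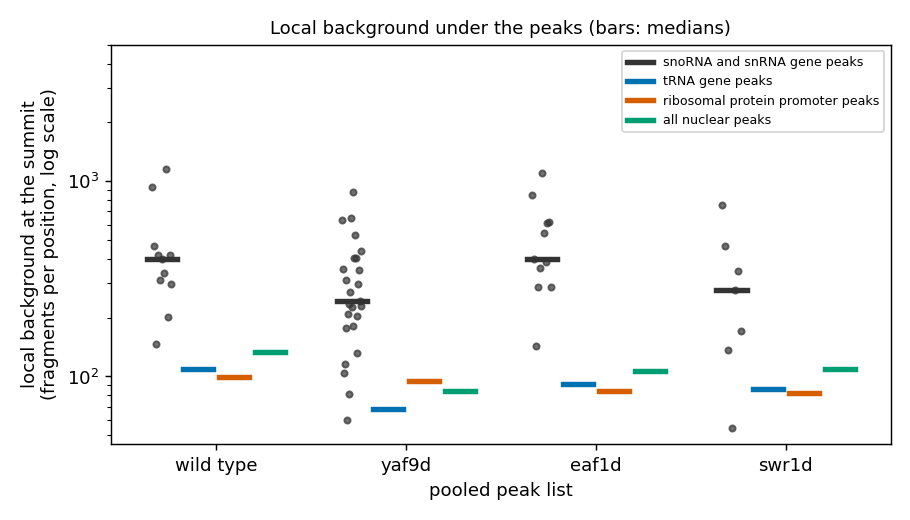
Local background at the summit (y axis, fragments per position, log scale) in each pooled list (x axis); points are single snoRNA and snRNA gene peaks and bars are medians of the kinds of peak named in the key. The snoRNA and snRNA gene median was 400 in wild type and 398 in eaf1d, above the bars of the other kinds.

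SNR30 had the highest local background of the group in wild type, yaf9d and eaf1d. At SNR30 the pileup was about 1555 fragments over a background of 1148 in wild type, 1488 over 884 in yaf9d and about 1303 over 1107 in eaf1d. Those backgrounds were within the top 0.483%, 0.225% and 0.277% of the peaks of each list. LSR1 came next in wild type and eaf1d. The pileup at LSR1 was about 1229 over 937 in wild type, 1111 over 632 in yaf9d and 1775 over 848 in eaf1d. SNR52 was at the other end, with 183 fragments over 59.6 in yaf9d and 200 over 54.4 in swr1d, and in both the background was at the lowest value of the list. SNR48 had 699 over 313 in wild type, 819 over 235 in yaf9d, 895 over 287 in eaf1d and 857 over 278 in swr1d. With the solved pileup taken as a Poisson count, its 95% interval was 648–753 at SNR48 in wild type and about 1233–1376 at SNR30 in eaf1d. These intervals cover the counting error of a count at a fixed position. They do not cover the peak caller's choice of the summit or differences between repeats.

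The proteins that build, process or use these RNAs were taken as 57 genes in 6 lists. A peak in the 500 bp promoter was called at 8 of them in wild type (14.04%, 6.26–25.8), 18 in yaf9d (31.6%, 19.9–45.2), 16 in eaf1d (28.1%, 16.97–41.5) and 5 in swr1d (8.77%, 2.91–19.3). Over all protein-coding genes it was 13%, 40.5%, 35.2% and 17.7%, so each interval held the share of all genes. The lists were made with earlier results of these data known.

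Among proteins of the box C/D particle, the methyltransferase gene NOP1 had a peak in wild type (fold 1.56) and yaf9d (1.81), and SNU13 and RRP9 had one in yaf9d (2.65 and 1.63). Of the 4 genes of the box H/ACA particle, NHP2 and GAR1 had peaks in wild type (folds 2.47 and 1.96) and yaf9d (1.72 and 1.91). None of the 9 genes of either particle had one in eaf1d or swr1d (upper bounds 52.2 for 5 genes and 60.2 for 4).

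Of 9 assembly factors, 1 had a peak in wild type, 3 in yaf9d, 5 in eaf1d and 1 in swr1d. RVB1, an ATPase that also belongs to SWR1, had folds of 1.87 in wild type and 1.997 in yaf9d. In eaf1d the peak at RVB1 (chromosome IV, 842401–842711, fold 2.18) did not overlap that of wild type (841677–842035). RVB2, its partner, had one in eaf1d (2.24). NAF1, a factor for the H/ACA particle, had folds of 1.63 in yaf9d, 1.46 in eaf1d and 2.11 in swr1d. Of 9 processing and cap factors LHP1, the yeast La protein, had a peak in wild type (1.89), yaf9d (2.04) and eaf1d (1.70), and the others had none.

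Of 26 spliceosomal snRNP protein genes 2 had a peak in wild type, 7 in yaf9d, 8 in eaf1d and 2 in swr1d. MUD1, a protein of the U1 particle, had folds of 1.49 in wild type, 2.31 in yaf9d and 2.32 in eaf1d, where it was the peak of rank 12. SMX3, of the Sm ring, had folds of 1.54 in wild type and 1.27 in yaf9d. In eaf1d the peak at SMX3 (chromosome XVI, 898672–899753, fold 1.995) did not overlap that of wild type (900063–900471). PRP6 had no wild-type peak and folds of 4.44 in yaf9d, 3.24 in eaf1d and 3.75 in swr1d. Of the 4 genes for general promoter factors, REB1 had a peak in all 4 lists (folds 1.80, 3.02, 2.25 and 2.98 in wild type, yaf9d, eaf1d and swr1d) and RAP1 one in each mutant list. TBF1, whose protein binds many snoRNA gene promoters in budding yeast, had none in any list.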

How the data were processed

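Per the submitters' processing notes, reads were processed with fastp 0.21.0, BWA 0.7.15-r1140, SAMtools 1.4 and MACS2. The sources used here do not state the genome build, the control, the options of MACS2 or the depth per sample. The deposited lists give for each peak the authors' fold (a ratio of pileup to local background at the summit) and the authors' −log10 p and −log10 q. The deposited score, a whole number made from −log10 q, was not used. Per the labels, each list pools the repeats of 1 tagged group.

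Peaks were set against the gene table of RefSeq R64 with Python 3.11.15, pandas 2.3.3, NumPy 2.4.6 and SciPy 1.17.1. Since the build is not given, placement was checked at the 275 tRNA genes. A summit lay within 60 bp of the middle of the gene at 34 in wild type, 114 in yaf9d, 76 in eaf1d and 112 in swr1d, and at 2, 4, 3 and 2 when the genes were shifted by 500 bp. No gene coordinates are printed. Strand came from the systematic name.

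A gene was inside another when at least 50% of it lay in a protein-coding gene, and clustered when the next such gene on the same strand was at most 500 bp away with no gene between. Box families and introns were assigned from general knowledge. Pileup and background were solved for −log10 p up to 250, with fold taken as (pileup + 1) over (background + 1). The pileup was whole within 0.05 of the step between whole pileups for 97.9% (wild type), 99.8% (yaf9d), 99.6% (eaf1d) and 98.3% (swr1d) of the summits solved. The rest took the nearest whole pileup and are given as "about". Overlap and solution were tested on simulated data.

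Every gene of the group with a peak is named. Alternatives are in the closing section. The genes, gene lists and tests were chosen with earlier results of these data known. Windows laid along the genome, windows past the end and the solved background were added after the peaks were seen. Planned searches for promoter motifs were not made, and no sequences are shown.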

Additional observations from a re-analysis of the deposited data

How the results depend on the processing

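Of 195 recomputed counts 137 stayed within 1.5 times the reported one, and the other 58 are given here, in the order wild type, yaf9d, eaf1d and swr1d where 4 values stand. Shares of all nuclear genes follow in brackets. With a window of 500 bp around the gene (19.3%, 69.9%, 56.0%, 30.9%) the counts were 22, 49, 23 and 17 in all, 16, 38, 18 and 12 of single genes, 0, 5, 3 and 2 of clustered genes and 6, 6, 2 and 3 of genes inside another, and 9 genes had a peak in all lists. With no window (11.1%, 53.4%, 39.6%, 16.8%) eaf1d held 7, all single, and genes in all lists to 2, and yaf9d held 1 gene inside another. With fold at least 2 (3.45%, 24.0%, 16.7%, 7.17%) it was 4, 18, 5 and 4, of which 4, 16, 5 and 4 single and 0, 1, 0 and 0 inside another. At equal list length (11.9%, 10.5%, 10.5%, 9.38%) there were 11, 21, 7 and 6, all 7 in eaf1d single, 2 genes were in all lists, and swr1d had 0 inside another. Summits in place of peaks (7.26%, 48.9%, 34.9%, 13.6%) gave 5, 11, 5 and 1, of which 4, 10, 5 and 1 single, 0 clustered in yaf9d, 1 inside another in yaf9d and 0 in swr1d, and 0 genes in all lists. The 300 bp around the start (10%, 31.3%, 27.7%, 12.5%) gave 6 in eaf1d, all single, 2 inside another in wild type and 0 in swr1d, and 0 clustered in yaf9d. That clustered gene was also lost without peaks over tRNA genes (0 clustered in yaf9d). With a cluster distance of 200 bp it kept its peak but counted as single, which left 0 clustered and 24 single genes with a peak in yaf9d. Pathway promoters with a peak were 1, 9 and 8 in wild type, yaf9d and eaf1d with fold at least 2, 6 and 6 in yaf9d and eaf1d at equal list length, and 30 in yaf9d and 9 in swr1d with promoters of 1000 bp. The share of all protein-coding promoters was not counted at these settings, so these pathway counts have no background here. At −log10 q of at least 5, and without peaks over ribosomal protein promoters, no count moved beyond 1.5 times.

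No paired analysis was possible because each list pools both repeats, and for the same reason no repeat was left out. The counts rest on 82 genes and 1 list per genotype, lists differ in length, and the untagged strain was not analysed here. Unspecific signal was not measured.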
